A study of Homo sapiens with 6 samples.

Results

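The mitochondrial protein import machinery was followed in A549 cells, an established human lung adenocarcinoma line, after knockdown of S100A4. The genes were chosen by name: a list of 34 genes for the translocases, chaperones and peptidases that bring nuclear-encoded proteins into mitochondria was looked up in the array's gene symbols, and 33 of the 34 had a value among the 25141 genes measured. No cluster carried the symbol TOMM6, which is not analysed here, and TOMM70 stands in the file under its older symbol TOMM70A. Cells stably carrying a lentiviral shRNA against S100A4 were compared with cells stably carrying a lentiviral control shRNA, 3 arrays each, all grown in DMEM/F12 with 10% serum to about 70% confluence. The sample descriptions give 3 days of culture and the treatment protocol 2 days, a difference that could not be settled. The labels name 1 shRNA in each group and call the arrays biological replicates, so every p-value covers only the spread among these arrays, not other shRNAs or independently made lines. The study's question was what acts below S100A4, a small calcium-binding protein linked to metastasis, on mitochondrial metabolism and on invasion.

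Almost all mitochondrial proteins are made in the cytosol and must be imported. The TOM complex forms the entry gate of the outer membrane, the TIM23 complex and its ATP-driven motor carry proteins with a presequence into the matrix, and the TIM22 complex inserts carrier proteins into the inner membrane with the help of small TIM chaperones of the intermembrane space. The SAM complex builds barrel proteins into the outer membrane, the MIA relay folds intermembrane space proteins by forming disulfides, and in the matrix the presequence is cut off and HSP60 with HSP10 folds the product.

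S100A4 itself read 5.74, 5.51 and 5.44 with S100A4 shRNA, against 7.57, 7.12 and 7.18 with control shRNA (log2 signal), a log2 fold of -1.73 (SE 0.13, limma adjusted p = 0.000453). An exact permutation test of these 6 values gave p = 0.1 (two-sided), and no smaller p is possible with 3 arrays in each group. The array's positive housekeeping control probe sets, which read RNA of the cells, had a median of 13.32 ± 0.13 with S100A4 shRNA and 13.54 ± 0.06 with control shRNA (SD, n = 3 each), a difference of -0.23. The medians of the other control kinds differed by 0.13 (hybridization), -0.27 (labeling), -0.06 (negative housekeeping) and -0.11 (antigenomic negative). The ERCC mix and ERCC transcript controls differed by -0.17 each. The array medians over all genes lay between 5.48 and 5.52. Of the markers of A549's epithelial type, KRT8, KRT18 and CDH1 averaged 15.01, 14.68 and 9.57 with S100A4 shRNA, against 15.45, 15.26 and 8.60 with control shRNA, while EPCAM averaged 6.07 with S100A4 shRNA and 5.86 with control shRNA. KRT8 and KRT18 fell and CDH1 and KRT19 rose, and their part in the results was not tested. The 7 markers of leukocytes, endothelium and fibroblasts had group means between 3.24 (PECAM1) and 5.01 (CD3E), where the array medians of the negative housekeeping controls were 4.18 to 4.27 and those of the antigenomic negative controls 3.03 to 3.23. A signal from cultured cells is a bulk measure, in which fewer cells of a kind and less RNA per cell cannot be told apart.

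Of the 33 import genes, 6 fell with S100A4 shRNA, 0 rose and 27 were not called (limma over all 25141 genes, Benjamini-Hochberg adjusted p under 0.05). They were TIMM21, TOMM40, HSPD1, TIMM44, TIMM8A and CHCHD4, with log2 folds between -0.50 and -0.25. Over all genes 5.49% were called lower and 6.08% higher, and of the import genes 18.2% were called lower. At an unadjusted p under 0.05, 14 of the 33 were lower and 0 higher, against 14% of all genes lower and 12.4% higher. The groups did not overlap for 16 of the 33, all 16 of them lower with S100A4 shRNA, where all genes gave 18.5% lower and 14.3% higher. The median log2 fold of the 33 was -0.15, against -0.03 for all genes, and 28 of the 33 had a fold below 0 (58.7% of all genes did), but 12 of the 33 (11.1% of all genes) when each array was instead centred on its positive housekeeping controls. That centring takes the difference of -0.23 off every fold, which put the median of the import genes at 0.08 and that of all genes at 0.19. The median of the import genes minus that of all genes was -0.12 on both scales, which a shift shared by all genes cannot change. With the controls as scale, limma called 0 import genes lower and 1, PMPCB, higher, while 1.25% of all genes were called lower and 20.5% in either direction. More import genes were called lower with array weights (9, against 7.15% of all genes), by cyclic loess (8, against 6.63%), by quantile normalization (12, against 7.6%) and among the upper 50% of genes by signal (9, against 12.7%).

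The number of calls depended on single arrays. Without S100A4 shRNA replicate 1, control replicate 1 or control replicate 3, 3 of the 33 were called (TIMM21, TOMM40 and HSPD1 each time), and the count was 4 or 5 without each other array. The share of all genes called lower fell too, from 5.49% with all arrays to 3.68%, 3.87% and 3.09% in that order. Without S100A4 shRNA replicate 2, S100A4 shRNA replicate 3 or control replicate 2 it was 4.08%, 3.41% and 3.67%. Set against the mean of the control arrays, 26 of the 33 import genes were lower on S100A4 shRNA replicate 1, 30 on replicate 2 and 24 on replicate 3, with median differences of -0.13, -0.22 and -0.08. Of all genes 56.7%, 54.5% and 59.4% were lower on these 3 arrays, with medians of -0.03, -0.02 and -0.05. Replicate 2 thus stood lowest of the 3 for the import genes, and the median over the 33 was -0.09 without it. Its positive housekeeping median was also the lowest, 13.18, against 13.34 on replicate 1 and 13.43 on replicate 3, and the part of this in the result was not tested beyond the centring on these controls.

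**Figure D1:**
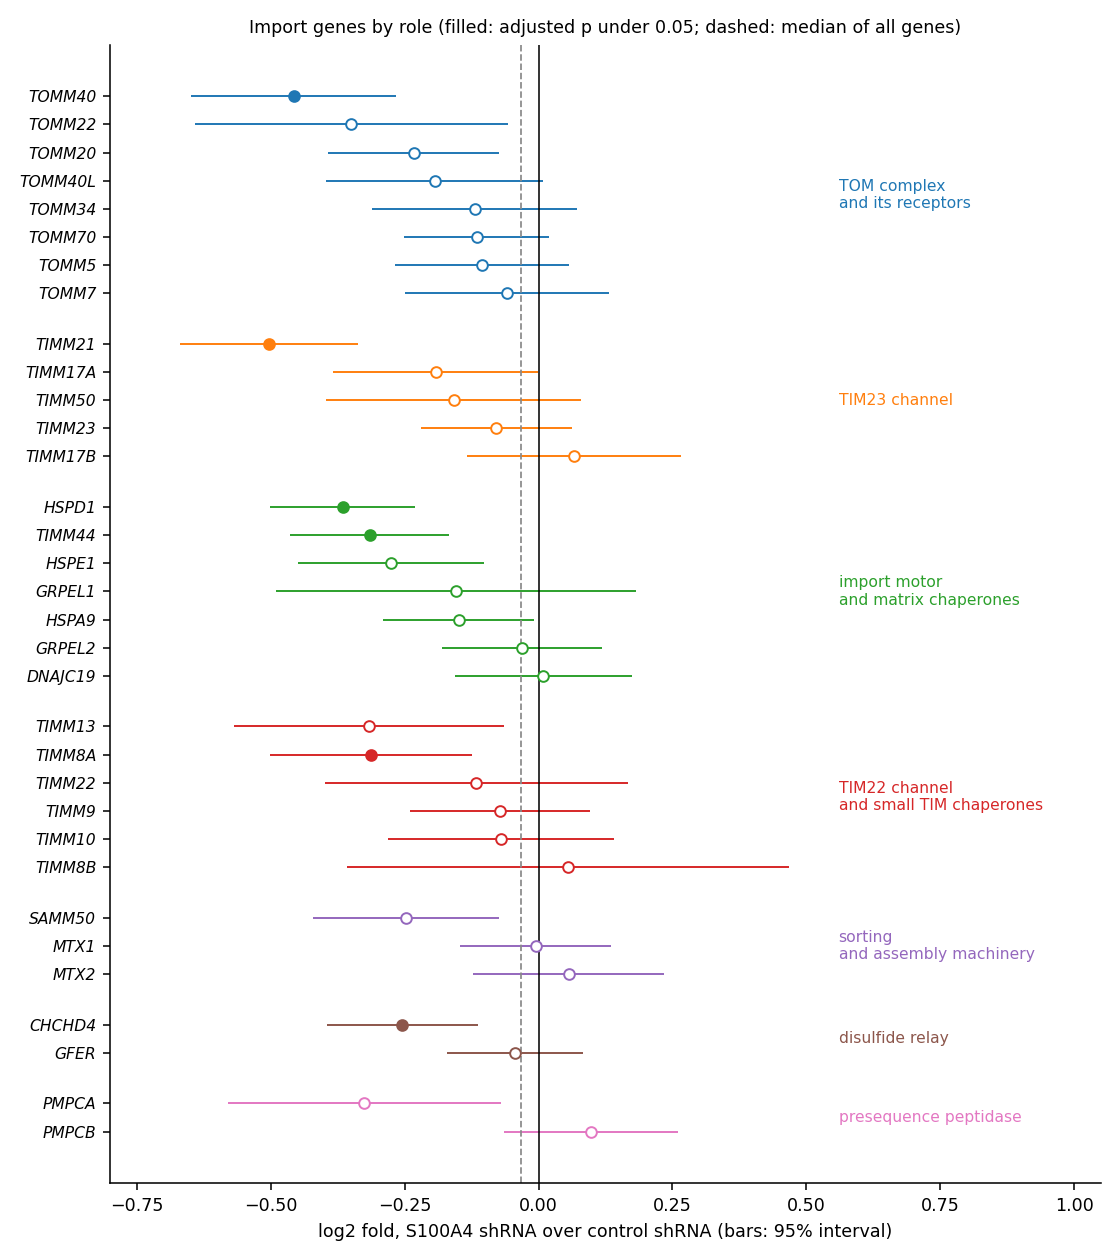
Log2 fold of each of the 33 import genes (x axis, S100A4 shRNA over control shRNA, bars are 95% intervals), grouped by role. Filled points passed an adjusted p of 0.05, the dashed line is the median of all genes (-0.03), and 28 of the 33 points lie below 0 on the deposited scale (12 of 33 when arrays are centred on the positive housekeeping controls).

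At the outer membrane, 1 of the 8 measured genes of the TOM complex and its receptors fell and 7 were not called, and on the deposited scale all 8 had a log2 fold below 0, with a median of -0.16. TOMM40, the barrel that forms the import pore, read 11.08, 10.93 and 11.05 with S100A4 shRNA, against 11.61, 11.36 and 11.46 with control shRNA. The groups did not overlap. The log2 fold of TOMM40 was -0.46 (SE 0.08, 1.37-fold lower, limma adjusted p = 0.0123), and its call held without each array in turn (largest limma adjusted p = 0.0471). The call of TOMM40 was lost on the scale of the positive housekeeping controls (log2 fold -0.23, limma adjusted p = 0.128). TOMM40 was also not called in the authors' deposited table described below (log2 difference -0.26, authors' p after adjustment 0.0836). Its paralog TOMM40L, the import gene of lowest mean signal, read 5.13, 5.12 and 4.91 with S100A4 shRNA and 5.12, 5.30 and 5.31 with control shRNA, and these groups overlapped (log2 fold -0.19, limma adjusted p = 0.207).

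The receptors and small subunits were not called. TOMM22, the central receptor that also holds the complex together, read 7.94, 7.84 and 8.24 with S100A4 shRNA, against 8.56, 8.27 and 8.25 with control shRNA. The highest S100A4 shRNA array of TOMM22 thus lay just below the lowest control array, and the log2 fold of -0.35 had a limma adjusted p of 0.124. TOMM20, the receptor for presequences, read 11.26, 11.12 and 11.19 with S100A4 shRNA and 11.34, 11.45 and 11.48 with control shRNA, without overlap (log2 fold -0.23, limma adjusted p = 0.0709). It was called with array weights and without the lower 50% of genes (limma adjusted p = 0.0397 and 0.0366). TOMM70, the receptor for carrier precursors bound to cytosolic chaperones, had a log2 fold of -0.12 and no overlap (limma adjusted p = 0.258). The small subunits TOMM5 and TOMM7 and the cytosolic co-chaperone TOMM34 had log2 folds of -0.11, -0.06 and -0.12, all with overlap.

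The promoters of the members were read for motifs of factors known for mitochondrial or chaperone genes. RefSeq windows (GRCh38.p14, 250 bases before to 50 after a start site) matched 30 of the 33 measured import genes, and the 250 bases before the start were searched on both strands for 5 motifs, none of which contains another. Import genes were counted per gene, and a gene can have windows at several start sites. The shares of all windows count each window, so these units are unlike. The CCAAT box (CCAAT) stood in windows of 11 of the 30 and in 32.0% of all 35116 windows. Of these 11, TOMM40, TIMM21 and TIMM44 were called lower. The others were MTX2, PMPCB, SAMM50, TIMM17A, TIMM17B, TIMM22, TIMM50 and TOMM40L, none of which was called. MTX2, PMPCB and TIMM17B among them had folds above 0. TOMM40 held 5 copies, a number chosen after it was seen, and 0.285% of all windows held at least as many. The window of TOMM40 on the plus strand, chr19:44891004-44891253, is shown for its number of CCAAT boxes, which are in capitals.

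TOMM40: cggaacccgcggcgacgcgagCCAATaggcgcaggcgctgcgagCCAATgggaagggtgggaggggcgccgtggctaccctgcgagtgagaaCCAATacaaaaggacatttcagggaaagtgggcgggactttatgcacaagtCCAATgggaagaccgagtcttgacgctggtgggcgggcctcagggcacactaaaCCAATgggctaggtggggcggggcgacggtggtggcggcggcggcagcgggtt

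In the inner membrane, 1 of the 5 genes of the TIM23 channel fell and 4 were not called, with a median of -0.16. TIMM21, a subunit known from yeast to contact the TOM complex and the respiratory chain, read 9.53, 9.36 and 9.51 with S100A4 shRNA, against 9.92, 10.04 and 9.95 with control shRNA. Every S100A4 shRNA array lay well below every control array. The log2 fold of TIMM21 was -0.50 (SE 0.07, 1.42-fold lower, limma adjusted p = 0.00487), and its call held without each array in turn (largest limma adjusted p = 0.0244). On the scale of the positive housekeeping controls the call was lost (log2 fold -0.27, limma adjusted p = 0.0767). TIMM21 was also not called in the authors' deposited table described below (log2 difference -0.22, authors' p after adjustment 0.0874). The plus-strand window before its start, chr18:74148273-74148522, is shown because it belongs to the member with the lowest fold, and its only CCAAT box is in capitals.

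TIMM21: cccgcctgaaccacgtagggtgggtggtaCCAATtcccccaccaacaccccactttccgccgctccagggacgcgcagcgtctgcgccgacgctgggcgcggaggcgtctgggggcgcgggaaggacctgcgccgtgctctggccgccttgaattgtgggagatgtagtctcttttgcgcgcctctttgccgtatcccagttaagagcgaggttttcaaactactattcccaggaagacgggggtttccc

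The pore-forming subunit TIMM23 had a log2 fold of -0.08, with values of 14.51, 14.44 and 14.41 with S100A4 shRNA and 14.57, 14.48 and 14.54 with control shRNA, and its groups overlapped (limma adjusted p = 0.463). By quantile normalization TIMM23 was called lower (log2 fold -0.25, limma adjusted p = 0.036). TIMM23 has a near-identical copy, TIMM23B (log2 fold -0.01, limma adjusted p = 0.944), and signal that probes share between the pair cannot be told apart. TIMM50, the receptor of the channel, had a log2 fold of -0.16 with overlap. The paralogs TIMM17A and TIMM17B, which alternate as a channel subunit, had log2 folds of -0.19 (limma adjusted p = 0.186, no overlap) and 0.07 (limma adjusted p = 0.668, overlap).

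Among the 7 genes of the import motor and the matrix chaperones, HSPD1 and TIMM44 fell and 5 were not called, with a median of -0.15. HSPD1, the chaperonin HSP60, read 11.00, 10.98 and 10.94 with S100A4 shRNA, against 11.35, 11.37 and 11.29 with control shRNA. The arrays of each group lay close together and the groups did not overlap. The log2 fold of HSPD1 was -0.37 (SE 0.06, 1.29-fold lower, limma adjusted p = 0.00756), a call that held without each array in turn (largest limma adjusted p = 0.0339). It was lost on the scale of the positive housekeeping controls (log2 fold -0.14, limma adjusted p = 0.34). HSPD1 was also not called in the authors' deposited table described below (log2 difference -0.10, authors' p after adjustment 0.157). Its partner HSPE1, the co-chaperonin HSP10 that caps HSP60, read 9.46, 9.43 and 9.60 with S100A4 shRNA, against 9.86, 9.72 and 9.74 with control shRNA. These groups did not overlap either, and the log2 fold of -0.28 missed the threshold (SE 0.07, limma adjusted p = 0.0542). HSPE1 was called with array weights, by quantile normalization, by cyclic loess and without the lower 50% of genes, with limma adjusted p-values from 0.0241 to 0.0496, and in none of the other alternatives.

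HSPD1 and HSPE1 are neighbours that are transcribed away from each other on chromosome 2. In the RefSeq windows their start sites had 104 bases between them, chr2:197500275-197500378, which are shown on the plus strand because they are the stretch that the pair shares. The capitals mark an E-box (CACGTG) whose first base is 22 bases before the HSPE1 start.

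HSPD1-HSPE1: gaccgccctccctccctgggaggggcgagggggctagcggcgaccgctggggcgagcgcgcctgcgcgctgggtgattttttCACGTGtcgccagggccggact

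The E-box stood in windows of 4 of the 30 import genes (HSPA9, HSPD1, HSPE1 and TOMM20), and in 6.34% of all windows. The site shown lies before the starts of both HSPD1 and HSPE1, so it is counted for both genes. The heat shock element (GAANNTTC) stood in 1 of the 30, at a second start of HSPD1, and in 5.78% of all windows. RefSeq lists 22 pseudogenes named after HSPD1, 28 after HSPE1, 5 after CHCHD4 and 4 after TOMM40, none of which has a value of its own here, so signal shared with such copies cannot be told apart from that of the genes.

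TIMM44, which tethers the motor to the channel, read 7.37, 7.38 and 7.50 with S100A4 shRNA, against 7.76, 7.69 and 7.75 with control shRNA. The groups did not overlap, and the log2 fold was -0.32 (SE 0.06, limma adjusted p = 0.0192). The call of TIMM44 was lost without S100A4 shRNA replicate 1, control replicate 1 or control replicate 3 (limma adjusted p = 0.0691, 0.0573 and 0.0761). HSPA9, the mitochondrial HSP70 that drives the motor, read 14.85, 14.78 and 14.83 with S100A4 shRNA and 14.99, 14.90 and 15.01 with control shRNA, without overlap (log2 fold -0.15, limma adjusted p = 0.167). HSPA9 too was called lower by quantile normalization (log2 fold -0.27, limma adjusted p = 0.0347). Its nucleotide exchange factors GRPEL1 and GRPEL2 had log2 folds of -0.15 and -0.03, and DNAJC19, related to the J-protein of the yeast motor, of 0.01, all with overlap.

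**Figure D2:**
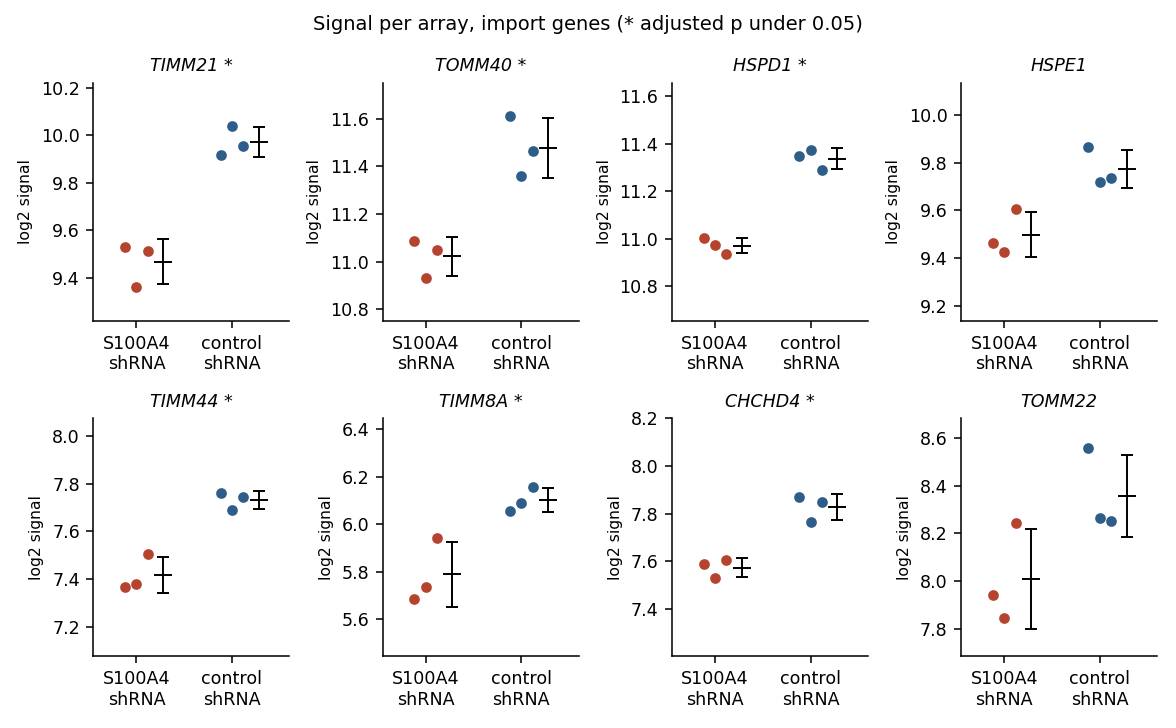
Log2 signal (y axis) on each array for the 6 called import genes (asterisk) and for HSPE1 and TOMM22, which were not called, with S100A4 shRNA in red at the left and control shRNA in blue at the right of each panel. Points are arrays, black bars are the mean and SD of 3 arrays, and every panel spans 1 log2 unit. HSPE1 and TOMM22 were picked after values were seen. The groups do not overlap in all 8 panels, nor in 16 of the 33 import genes. Of all genes, 18.5% were lower and 14.3% higher without overlap.

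Of the 6 genes of the TIM22 channel and the small TIM chaperones, 1 fell and 5 were not called, with a median of -0.09. TIMM8A, which escorts precursors across the intermembrane space and whose loss causes Mohr-Tranebjaerg syndrome, read 5.69, 5.74 and 5.94 with S100A4 shRNA, against 6.06, 6.09 and 6.16 with control shRNA. The groups did not overlap, and the log2 fold was -0.31 (SE 0.08, limma adjusted p = 0.0477). This call was lost without each array other than S100A4 shRNA replicate 3 (limma adjusted p from 0.0834 to 0.155) and when arrays were centred on the median of all genes (0.0554). Its paralog TIMM8B read 7.80, 7.58 and 7.79 with S100A4 shRNA and 8.04, 7.27 and 7.69 with control shRNA, a wide spread among controls that covers all S100A4 shRNA arrays (log2 fold 0.06).

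TIMM13, the partner of TIMM8A in their shared chaperone, read 7.67, 7.50 and 7.68 with S100A4 shRNA, against 8.15, 7.77 and 7.88 with control shRNA. The groups did not overlap, but the control arrays spread over a wider range, and the log2 fold of -0.32 was not called (limma adjusted p = 0.109), though it was by cyclic loess (0.0369) and by quantile normalization (0.0378). TIMM9 and TIMM10, which form the other small TIM chaperone, had log2 folds of -0.07 each, and the channel TIMM22 had -0.12, all 3 with overlap.

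The disulfide relay has 2 genes here. CHCHD4, the oxidoreductase MIA40 that receives and oxidises precursors, read 7.59, 7.53 and 7.60 with S100A4 shRNA, against 7.87, 7.76 and 7.85 with control shRNA. The groups did not overlap, and the log2 fold was -0.25 (SE 0.06, limma adjusted p = 0.0347). Without each of the 6 arrays in turn CHCHD4 lost its call (limma adjusted p from 0.0555 to 0.124), while the log2 fold stayed between -0.29 and -0.23. GFER, the sulfhydryl oxidase that recharges CHCHD4, read 5.79, 5.83 and 5.83 with S100A4 shRNA and 5.85, 5.87 and 5.88 with control shRNA, a gap between groups of small size (log2 fold -0.04, limma adjusted p = 0.65).

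CHCHD4 was among 3 of the 30 import genes with the motif of nuclear respiratory factor 1 (GCGCATGCG), a factor known for genes of mitochondrial function, besides TIMM9 and TOMM7. That motif stood in 1.64% of all windows, and the motif of the factor GABP (CCGGAAGT) in 3.42% of all windows and in 4 of the 30 (GRPEL2, TIMM10, TOMM20 and TOMM70), none of which was called. The 181 bases before the CHCHD4 start on the minus strand, chr3:14124871-14125051, fill the space up to the neighbouring gene TMEM43. They are shown with the motif of nuclear respiratory factor 1 in capitals, which lies nearer to the TMEM43 end than to the CHCHD4 start.

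CHCHD4: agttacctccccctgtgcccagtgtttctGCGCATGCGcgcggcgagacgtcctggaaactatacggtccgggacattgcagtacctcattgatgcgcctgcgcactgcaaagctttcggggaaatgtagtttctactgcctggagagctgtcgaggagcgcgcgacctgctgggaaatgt

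Of the 3 genes of the sorting and assembly machinery, 0 were called by limma and 1, SAMM50, had an unadjusted p under 0.05. SAMM50, the barrel that inserts other barrels, read 9.67, 9.70 and 9.57 with S100A4 shRNA, against 10.00, 9.80 and 9.87 with control shRNA, without overlap (log2 fold -0.25, limma adjusted p = 0.0767). It was called with array weights (limma adjusted p = 0.0445), by quantile normalization (0.0232) and without the lower 50% of genes (0.0391). Its partners MTX1 and MTX2 had log2 folds of -0.01 and 0.06, with overlap. Of the presequence peptidase, 0 of 2 genes were called by limma. The subunit PMPCA read 8.60, 8.55 and 8.36 with S100A4 shRNA, against 9.01, 8.63 and 8.85 with control shRNA, without overlap (log2 fold -0.33, unadjusted p = 0.019, limma adjusted p = 0.105), and was called by quantile normalization (limma adjusted p = 0.0387). The catalytic subunit PMPCB read 11.84, 11.64 and 11.70 with S100A4 shRNA and 11.65, 11.60 and 11.63 with control shRNA, with overlap (log2 fold 0.10, limma adjusted p = 0.422). PMPCB thus had the highest fold of the 33, and it was called higher on the scale of the positive housekeeping controls (log2 fold 0.33, limma adjusted p = 0.0453).

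The folds were also set against signal, since calls were more frequent among bright genes and 30 of the 33 import genes had a mean log2 signal above 6. In each of 5 bands of mean log2 signal the median of the import genes lay below the median of all genes. Between 8 and 10, where 11 import genes lie, these medians were -0.19 and 0.01, and between 10 and 12, with 9 import genes, they were -0.12 and -0.01. Between 6 and 8 the 7 import genes had a median of -0.15, against 0.02 for all genes. The lowest and the highest band held 3 import genes each (medians of -0.19 and -0.11, against -0.05 and -0.02 for all genes). Of all genes, 6.03% were called lower between 6 and 8, 11.4% between 8 and 10, 15.1% between 10 and 12 and 16.6% above 12, against 2 of 7, 1 of 11, 2 of 9 and 0 of 3 import genes by limma. Below 6 the share of all genes was 2.14%, against 1 of 3 import genes. The import genes' share was thus above that of all genes in the bands below 8 and between 10 and 12, and below it in the others.

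**Figure D3:**
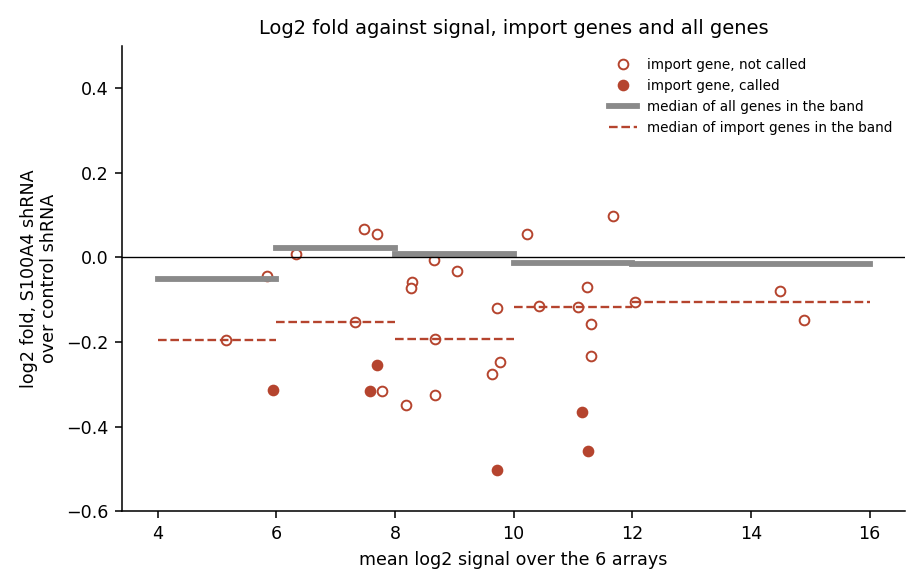
Log2 fold (y axis, S100A4 shRNA over control shRNA) against mean log2 signal over the 6 arrays (x axis). Red points are the 33 import genes (filled where called), grey bars the median of all genes in each signal band and dashed lines the median of the import genes, which lies below the grey bar in all 5 bands.

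The authors also deposited a workbook with their own group means, which differ from the means of the value table for a reason not given in the labels. With S100A4 shRNA, the bright TIMM23 averaged 8.50 in the workbook and 14.45 in the value table. The weak GFER averaged 7.57 and 5.82. Differences on these scales are therefore not like for like. In the workbook the differences for the 6 called import genes were smaller. Linear ratios there, S100A4 shRNA over control shRNA in the authors' deposited table, were 0.857 for TIMM21, 0.837 for TOMM40, 0.931 for HSPD1, 0.899 for TIMM44, 0.876 for TIMM8A and 0.935 for CHCHD4. All 6 were thus lower there too. Of the 33, 25 were below 0 there. The median log2 difference of the 33 in the authors' deposited table was -0.04, against -0.06 for all genes, so on those values the import genes did not lie below all genes. After adjustment of the authors' p-values over all genes, 0 of the 33 were called (lowest adjusted p = 0.0836, for TOMM40) and 2.12% of all genes were called. At an unadjusted p under 0.05, 7 of the 33 were lower and 1 higher in the authors' deposited table, where all genes gave 18.2% and 11.2%.

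Among the members, 4 had folds below 0 in the value table and ratios above 1 in the authors' deposited table: TOMM7 (ratio 1.08), TOMM70 (1.10), GRPEL2 (1.16) and TIMM9 (1.16). TIMM17B had the opposite pair of signs, with a ratio of 0.995. None of these 5 was called in either table.

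**Figure D4:**
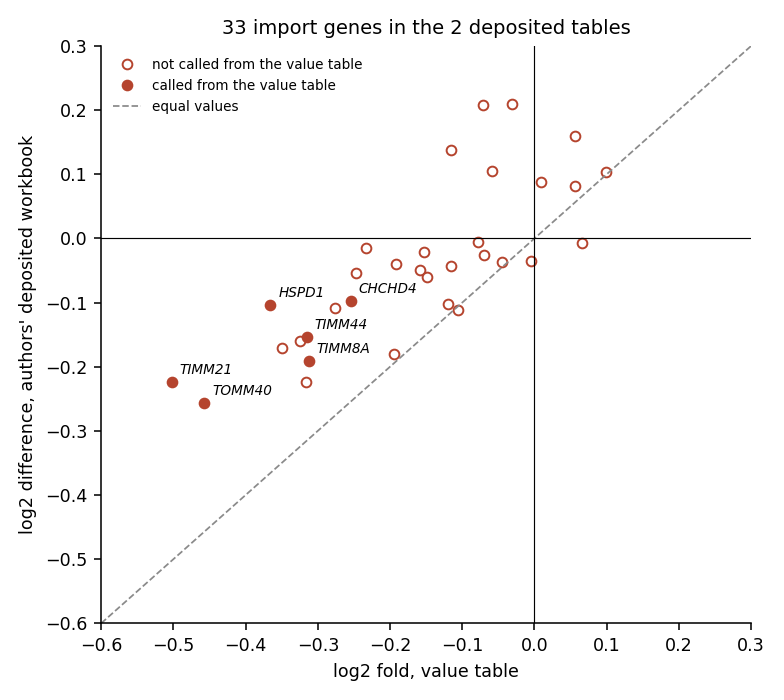
Log2 difference of the authors' deposited workbook (y axis) against the log2 fold from the value table (x axis) for the 33 import genes, both S100A4 shRNA over control shRNA. The 6 called genes (filled, named) are below 0 on both axes and nearer to 0 in the workbook, and 25 of 33 points are below 0 in the workbook.

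Genes that work with the import machinery were taken from lists written down for this comparison. Beside each list stand the shares over all genes, 5.49% called lower and 6.08% called higher. Of 12 other subunits of the import complexes, 1 fell, 0 rose and 11 were not called, with a median of -0.04. DNAJC11, a J-protein of the complex that links the SAM barrel to the cristae, read 9.63, 9.62 and 9.53 with S100A4 shRNA, against 10.06, 9.83 and 10.04 with control shRNA (log2 fold -0.39, limma adjusted p = 0.0196), a call lost without S100A4 shRNA replicates 1 or 3 or control replicates 1 or 3 (limma adjusted p up to 0.0792). PAM16, the partner of DNAJC19 in the motor, had a log2 fold of 0.31 with no overlap and was not called (limma adjusted p = 0.107). Of 14 other processing and degrading proteases, 1 fell, the rhomboid protease PARL (log2 fold -0.25, limma adjusted p = 0.0427, a call lost without each of the 6 arrays in turn, up to 0.137), 0 rose and 13 were not called. Of 8 other mitochondrial chaperones and prohibitins, 2 fell, 0 rose and 6 were not called. These were DNAJA3, the J-protein of mitochondrial HSP70 (log2 fold -0.42, limma adjusted p = 0.0101), and the scaffold prohibitin PHB1 (-0.41, 0.0137). Both calls held without each array in turn, but not on the scale of the positive housekeeping controls (log2 folds of -0.19 and -0.18, limma adjusted p = 0.228 and 0.196) or in the authors' deposited table (log2 differences of -0.22 and -0.15, adjusted p = 0.0806 and 0.0709).

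Cytosolic chaperones of precursor proteins had the largest share of calls among these lists. Of 13, 6 fell, 0 rose and 7 were not called, with a median of -0.33. HSP90AA1 and HSPA8, which hand precursors to TOMM70 and have pseudogene copies, were among them. HSP90AA1 read 15.85, 15.77 and 15.78 with S100A4 shRNA, against 16.34, 16.25 and 16.35 with control shRNA (log2 fold -0.51, limma adjusted p = 0.00234). HSPA8 read 16.81, 16.71 and 16.83 with S100A4 shRNA, against 17.20, 17.17 and 17.22 with control shRNA (log2 fold -0.41, limma adjusted p = 0.00553). HSP90AB1 (-0.41), the J-proteins DNAJA1 (-0.56) and DNAJA2 (-0.33) and the organising co-chaperone STIP1 (-0.43) also fell. These called genes are bright, with mean log2 signals from 10.70 (DNAJA2) and 13.68 (STIP1) up to 16.99 (HSPA8). Of all genes, 15.1% were called lower between 10 and 12 and 16.6% above 12. The part of signal in this list's share of calls was not tested. The call of DNAJA2 was lost without S100A4 shRNA replicate 3 or any 1 control array (limma adjusted p up to 0.0696), and that of STIP1 without S100A4 shRNA replicates 1 or 3 or control replicates 1 or 3 (up to 0.0602). DNAJA2 was higher in the authors' deposited table (ratio 1.13). The heat-inducible DNAJB1 had a log2 fold of 0.09 and was not called. On the scale of the positive housekeeping controls, where the median of all genes was 0.19, all 6 stayed below 0, between -0.33 and -0.10, and limma called only DNAJA1 of these 6 (adjusted p = 0.0493).

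Of 8 genes of mitochondrial stress signalling, 1 rose, 0 fell and 7 were not called, with a median of 0.10. TRIB3, a pseudokinase induced by ATF4, read 7.84, 7.73 and 8.07 with S100A4 shRNA, against 7.49, 7.20 and 7.39 with control shRNA (log2 fold 0.52, limma adjusted p = 0.0217), a call lost without S100A4 shRNA replicates 1 or 3 or control replicates 2 or 3 (limma adjusted p up to 0.0665). PINK1, a kinase whose protein builds up on mitochondria when import fails, had an RNA log2 fold of 0.28 with no overlap and missed the threshold (limma adjusted p = 0.0649). It was called higher with array weights, without the lower 50% of genes and on the scale of the positive housekeeping controls. EIF2AK1 had a log2 fold of 0.19 with no overlap (limma adjusted p = 0.105). By cyclic loess and on the scale of those controls EIF2AK1 was called higher. ATF4, ATF5 and DDIT3, regulators of the mitochondrial unfolded protein response, had log2 folds of 0.07, -0.15 and -0.16 and were not called. Over the 5 lists, 10 of 55 genes (18.2%) fell and 1 rose, against 5.49% and 6.08% of all genes. On the scale of the positive housekeeping controls the split was the other way. There 1 of the 55 was called lower (DNAJA1) and 10 were called higher, against 1.25% and 19.3% of all genes. The authors' deposited table had 2 of the 55 called lower (HSP90AB1 and ROMO1) and 0 higher, against 1.07% and 1.04% of all genes.

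**Figure D5:**
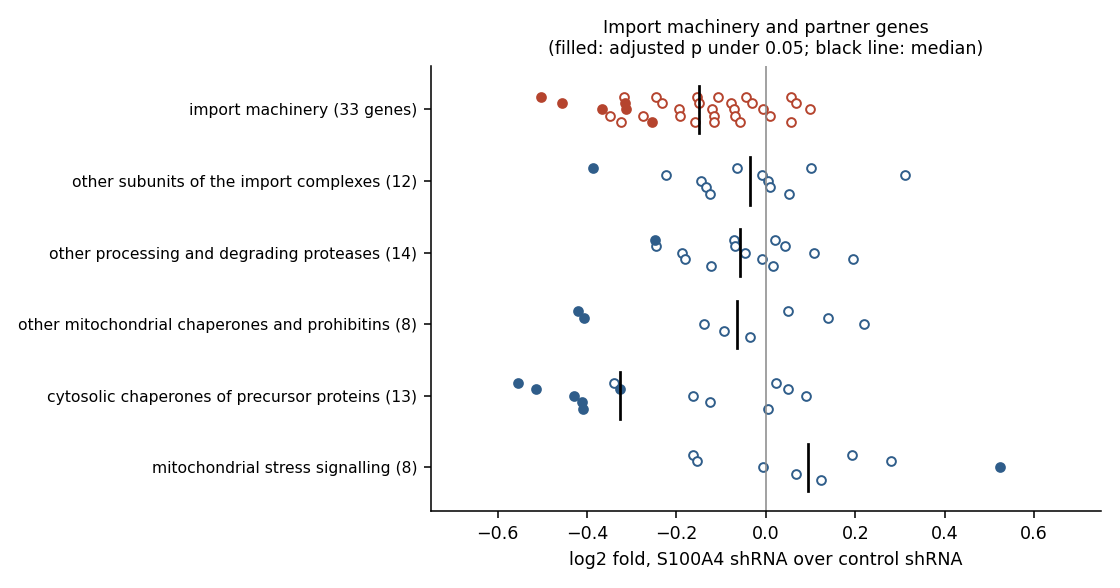
Log2 fold (x axis, S100A4 shRNA over control shRNA) of the 33 import genes (red) and of the 5 partner lists (blue, number of genes in brackets). Each point is a gene, filled where called at an adjusted p under 0.05, and black lines are list medians, which run from -0.33 for cytosolic chaperones to 0.10 for stress signalling (the import median, -0.15 here, is 0.08 on the scale of the positive housekeeping controls).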

How the data were processed

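Per the labels' protocols, Trizol-extracted RNA was labelled with a whole-transcript kit and biotin. The deposited value table holds log2 signal of 70523 features on 6 arrays, a scale read from its values. The program and normalization behind it are not given in the sources used here. The authors' deposited workbook holds log2 group means, an unadjusted p-value, a linear ratio, a signed fold change and the standard errors of the group means (the fold change and the errors read here as scores), per the file headers. The only tool the submitters' processing notes give is Partek 6.0. The workbook gave the gene symbols, which were updated through RefSeq (assembly GRCh38.p14, for names): accessions matched 22671 clusters, current symbols 2138 and older symbols 976, while 1045 kept the file's. For 668 genes with several clusters, that of highest mean signal was kept.

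All 25141 genes were fitted on the log2 scale with limma 3.58.1 in R 4.3.3 (lmFit, then eBayes), two-sided, with Benjamini-Hochberg adjustment, without a signal filter or covariate, and genes were called at an adjusted p under 0.05. The fit was tested on simulated data. Each SD is that of 3 arrays, and SE and 95% intervals come from limma. Precision is limited by the 3 arrays in a group. Arrays correlated across genes at r of 0.9966 to 0.9978 within a group and 0.9926 to 0.9945 between groups, and no pair shared more than 0.0278% of its values.

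Named genes are S100A4, all import genes by role, with values per array for called members and their paralogs, other members by range or lack of overlap, and every called partner gene. The per-array values of members that were not called, the motifs and other partner genes were chosen after values were seen. The import genes, the lists and the alternatives were chosen with earlier results of these data known. The alternatives were a signal filter, quantile normalization, cyclic loess, centring on all genes or on the positive housekeeping controls, eBayes with trend, array weights, a replicate block, the mean of all clusters, the authors' values and each array left out.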

Additional observations from a re-analysis of the deposited data

How the results depend on the processing

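S100A4 stayed called in all alternatives run, with a log2 fold between -1.82 and -1.59 when 1 array was left out. Leaving out 1 array gave 1539 to 2583 called genes against 2910 with all arrays (1539, 1816, 1801 and 1767 without control replicates 3 and 2 and S100A4 shRNA replicates 1 and 3), 3 to 5 import genes against 6, 6 to 10 partner genes against 11, and a median log2 fold of the import genes of -0.18 to -0.09. The authors' deposited workbook gave 532 called genes, 0 import genes, 2 partner genes and an import median of -0.0434, and there DNAJA2 changed sign (0.17). Centring on the positive housekeeping controls, chosen after seeing the data, gave 5157 called genes, 1 import gene and an import median of 0.079. Quantile normalization gave 12 import genes, all lower, TIMM21, TOMM40, HSPD1, TIMM44, TIMM8A and CHCHD4 among them, while 7.6% of all genes were called lower. Cyclic loess, also chosen after seeing the data, gave 8, and array weights and the filter on low signals 9 each, the same 6 among them. The cause of these differences was not tested. With a replicate block 2883 genes and 6 import genes were called. Deviations of same-numbered arrays from their group means correlated at 0.08, 0.17 and -0.01, so the numbers were not treated as pairs, and this replicate block changed no call of an import gene. Among the partner genes it ended the call of PARL (limma adjusted p = 0.061) and added that of PAM16. The 6 import calls were lost together only in the workbook and on the scale of the positive housekeeping controls. No probe signal over background was used, so the weak signals of TOMM40L, GFER and TIMM8A, the last of them a called gene, limit what their folds can show.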
